A study of Mus musculus with 7 samples.

Results

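Oxidative phosphorylation subunits are the proteins of the respiratory chain and of ATP synthase, and their genes lie in 2 genomes. They were taken by symbol: names beginning with Ndufa, Ndufb, Ndufc, Ndufs or Ndufv and a digit, Sdha to Sdhd, Uqcr, Cox4 to Cox8, Atp5, and the mt-Nd, mt-Co, mt-Cytb and mt-Atp genes. This gave 109 of the 55228 rows of the count table, of which 96 are nuclear and 13 mitochondrial. After the filter on low counts, 86 nuclear and all 13 mitochondrial members were tested. The 10 nuclear members below the filter were Ndufa11b, Uqcrh-ps1, Uqcrh-ps2, Cox7b2, Cox8b, Cox8c, Ndufa4l2, Atp5c1-ps, Atp5k-ps2 and Atp5l-ps2. Of the 96 nuclear members, 84 were annotated as protein-coding, and the others were mostly processed gene copies.

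RNA-seq libraries had been made from primary granulosa cells, the somatic cells that surround the oocyte, of the ovary of C57BL/6J mice. There were 4 wild-type (WT) libraries and 3 from mice labelled Fhl2 KO (KO), all untreated; Fhl2 encodes a LIM-domain protein. The labels give neither the allele nor the ages of the mice, and they do not say whether the libraries came from separate animals, so the p-values rest on differences among libraries that may be technical replicates.

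Complexes I, III and IV pass electrons to oxygen and pump protons across the inner mitochondrial membrane, complex II feeds electrons in without pumping, and complex V uses the proton gradient to make ATP. Complexes I, III, IV and V join subunits translated in the cytosol with subunits made inside the mitochondrion from its own DNA, whereas complex II is entirely nuclear. In granulosa cells the inner membrane of the mitochondrion also holds the first enzyme of steroid synthesis, which takes its electrons from a separate carrier system.

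The total per library was 38855596 to 50514556 counts. Fhl2 stood at 101, 114, 106 and 109.8 CPM (counts scaled by library total and edgeR's TMM factor) in WT libraries 1 to 4 and at 47.9, 66.7 and 60.3 in KO libraries 1 to 3, a log2 change of -0.88 (SE 0.107, edgeR adjusted p = 3.30e-05). Counts of Fhl2 remained in every KO library, and the labels do not say which part of the gene is deleted. Granulosa marker genes summed to 6354 to 7080 CPM in WT and 5547 to 6711 CPM in KO libraries. Across all genes, the KO libraries differed from WT in how level depended on transcript length. The slope of a gene's log2 deviation on length was 0.0591 to 0.0847 per doubling of length in WT, 0.00097 in KO library 1, -0.173 in KO library 2 and -0.136 in KO library 3, so short transcripts were relatively higher in KO libraries 2 and 3.

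Sequences are shown first for mt-Nd3, because it had the largest change of any tested member and because a nuclear pseudogene nearly equals it. The lines give the first 60 bases of mt-Nd3 (chrM:9459-9518, plus strand) and of Gm28438, an unprocessed pseudogene (chr1:24613060-24613119, minus strand), from GENCODE transcripts of mm10, with the base that differs in capitals.
mt-Nd3: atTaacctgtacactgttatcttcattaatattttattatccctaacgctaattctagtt
Gm28438: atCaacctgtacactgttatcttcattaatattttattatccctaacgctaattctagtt
Over the 345 aligned bases the identity was 99.71%, and T3C was the only difference, with the mt-Nd3 base first and positions counted from 1 at its first base, which is position 9461 of the mitochondrial chromosome.

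For the nuclear members, 3 promoter windows of 58 bases are shown because they hold GCGCATGC, the core of the recognition sequence of NRF1, a transcription factor known to act on many respiratory chain genes, or its reverse GCATGCGC. They are the called members with the smallest p-values whose motif lies before the start with its flanks. They come from RefSeq (GRCm38.p6) and are Ndufa6 (chr15:82354342-82354399, minus strand), Sdhb (chr4:140961192-140961249, plus strand) and Cox6a1 (chr5:115349088-115349145, minus strand), with the motif in capitals.
Ndufa6: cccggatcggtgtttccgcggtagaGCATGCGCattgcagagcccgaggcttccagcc
Sdhb: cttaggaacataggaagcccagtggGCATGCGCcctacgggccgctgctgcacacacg
Cox6a1: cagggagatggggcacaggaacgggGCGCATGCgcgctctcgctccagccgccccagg

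Nuclear subunit genes rose in the KO libraries by a moderate amount, while mitochondrial genes did not move together. Of the 86 nuclear members tested, 64 were higher in KO, none was lower and 22 did not pass (edgeR quasi-likelihood test, Benjamini-Hochberg adjusted p under 0.05 over all 15798 genes tested). Of all genes tested, 29.0% were called, 13.5% higher and 15.6% lower. The median log2 change was 0.38 over the nuclear members against -0.0002 over all genes, and single members ran from -0.29 to 0.89. None of the nuclear members was called lower at an unadjusted p under 0.05, nor by DESeq2 or limma, which called 16.7% and 21.8% of all genes lower. All 3 KO libraries lay above all 4 WT libraries for 55 nuclear members, or 64.0%, against 16.4% of all genes tested, and all 3 lay below for none, against 17.7%. No nuclear member reached a 2-fold change with a call, which 2.12% of all genes did. In bulk RNA, a change in the mix of cells and a change of RNA per cell cannot be told apart.

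**Figure D1:**
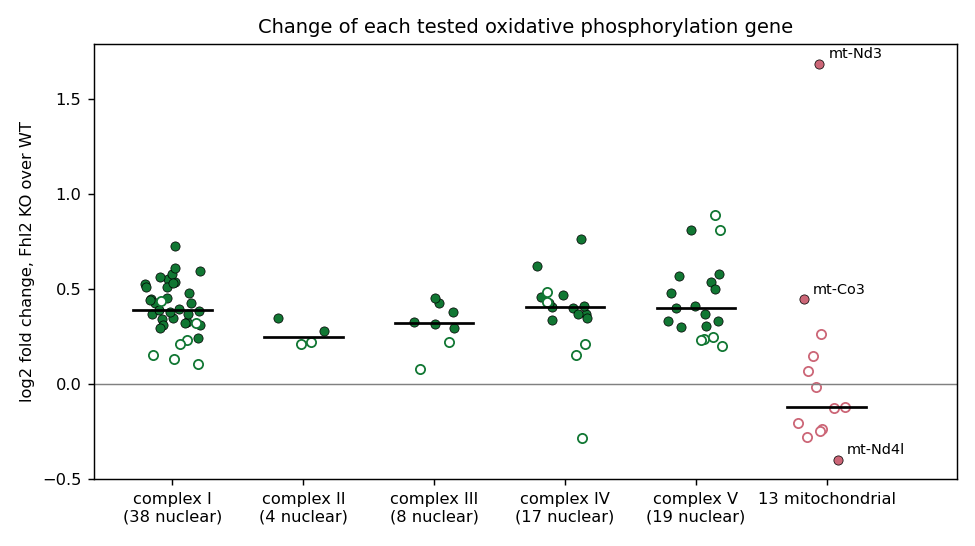
Log2 fold change, KO over WT, of each tested member (1 point per gene), with the nuclear members split by respiratory complex and the mitochondrial members apart. Points of all 5 nuclear complexes lie mostly above 0 (median 0.38), whereas the mitochondrial genes lie on both sides, with mt-Nd3 alone at 1.68.

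Complex I, which takes electrons from NADH, had 31 of its 38 tested nuclear members called higher, with a median log2 change of 0.39. The 7 core subunits, which carry the flavin and the iron-sulphur clusters, had 5 called higher and a median of 0.37, and the 28 accessory subunits had 25 and a median of 0.42. The remaining call was Ndufb4c, a processed copy identical to Ndufb4 over 390 bases, named after its value was seen. Ndufa6, an accessory subunit, was at 47.7, 56.0, 50.4 and 47.1 CPM in WT and at 69.4, 90.7 and 89.4 CPM in KO. KO library 1 was the lowest of the KO libraries but above every WT library, and the log2 change was 0.73 (SE 0.105, edgeR adjusted p = 1.82e-04). Ndufs6, which is needed for the last step of complex I assembly, was at 79.7, 89.9, 86.6 and 87.0 CPM in WT and at 116, 135 and 141 CPM in KO. The groups did not overlap, and the log2 change was 0.61 (SE 0.0915, edgeR adjusted p = 2.77e-04). Ndufc1, an accessory subunit of the membrane arm, had 128, 134, 126 and 132 CPM in WT and 169, 201 and 212 CPM in KO. Again every KO library was above WT, with a log2 change of 0.58 (SE 0.0921, edgeR adjusted p = 4.33e-04).

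Complex II, succinate dehydrogenase, had the lowest median change, 0.25 over its 4 genes, of which Sdhb and Sdhd were called higher. Its genes had a median transcript length of 2065.5 bases, against 645 to 955 in the other complexes. Once each library's trend on length and GC content was removed, the complex II median of 0.196 was no longer lowest. Complexes I, III, IV and V then had 0.192, 0.080, 0.155 and 0.223. Sdha and Sdhc were then called higher (edgeR adjusted p = 0.0261 and 0.0207), and Sdhb and Sdhd were not (0.314 and 0.225). Sdhb, the iron-sulphur subunit, was at 72.4, 77.9, 72.5 and 72.9 CPM in WT and at 79.6, 101 and 102 CPM in KO. KO library 1 stood just above WT library 2, and the log2 change was 0.35 (edgeR adjusted p = 0.0139; 0.0958 without KO library 3). Sdhd, a membrane anchor, changed by 0.28 (edgeR adjusted p = 0.0428), with KO library 1 inside the WT range, and this call was lost on leaving out any library other than KO library 1. Sdha, the flavin subunit, was at 297, 329, 306 and 283 CPM in WT and at 338, 329.6 and 386 CPM in KO, a log2 change of 0.21 that did not pass (edgeR adjusted p = 0.0935).

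In complex III, which moves electrons from ubiquinol to cytochrome c, 6 of 8 tested members were called higher, with a median log2 change of 0.32. Uqcrq, a small accessory subunit, was at 102, 115, 113 and 102 CPM in WT and at 127, 150.5 and 166 CPM in KO, without overlap. Its log2 change was 0.45 (SE 0.0983, edgeR adjusted p = 0.00369). Uqcrfs1, the Rieske iron-sulphur protein, changed by 0.38 (edgeR adjusted p = 0.0120), and Uqcrc2, a core subunit, by 0.32 (edgeR adjusted p = 0.0147). Uqcrfs1 was not called without KO library 2 (0.0604) or KO library 3 (0.0501), nor Uqcrc2 without KO library 3 (0.113). The other core subunit, Uqcrc1, changed by 0.22 and did not pass (edgeR adjusted p = 0.0859).

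In complex IV, cytochrome c oxidase, 12 of 17 tested members were called higher, including 10 of the 11 subunits used in most tissues. Cox4i1 encodes the common form of subunit 4. It had 164, 173.5, 156 and 166 CPM in WT and 183, 254 and 239.5 CPM in KO, with KO library 1 nearer to WT than to the other KO libraries. Its log2 change was 0.45 (SE 0.104, edgeR adjusted p = 0.00501). Cox7a2, the common form of subunit 7a, was at 25.6, 31.7, 24.1 and 24.1 CPM in WT and at 32.9, 41.8 and 46.9 CPM in KO. KO library 1 exceeded WT library 2 only slightly, and the log2 change was 0.62 (SE 0.126, edgeR adjusted p = 0.00269). Cox6b1, on the intermembrane side, changed by 0.47 (SE 0.100, edgeR adjusted p = 0.00337), and Cox8a by 0.41 (SE 0.0943, edgeR adjusted p = 0.00507), both without overlap. Cox6a1, Cox6c, Cox7b, Ndufa4 and Cox7a2l, which helps to join complexes III and IV, changed by 0.34 to 0.42 and were each lost without KO library 3 (edgeR adjusted p = 0.0566 to 0.117). Cox6a1 was also lost without WT library 4 (0.0593), and Cox6c without WT library 1 (0.0583).

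Isoforms known from heart, skeletal muscle, testis or hypoxic tissue had low levels, at most 2.40 CPM in any library. Cox4i2, the form that responds to low oxygen in lung, had 1.32, 0.916, 0.812 and 0.801 CPM in WT and 1.61, 1.38 and 1.89 CPM in KO. Its log2 change of 0.76 passed narrowly (SE 0.274, edgeR adjusted p = 0.0451), and it was lost without WT library 2, 3 or 4 or without KO library 3 (0.0787 to 0.192). Lung marker genes, read beside it, summed to 0.128 to 0.418 CPM in WT and to 10.7, 25.3 and 1.16 CPM in KO libraries 1 to 3, and their part in the result was not tested. The muscle forms Cox6a2 and Cox7a1 had 0.139 to 0.966 CPM in all libraries and did not pass. The testis form Cox6b2 ran from 1.08 to 2.40 CPM and was the only tested nuclear member with a negative value, -0.29 (edgeR adjusted p = 0.454). Cox8b and Cox8c had 0 counts in all 7 libraries, which allows up to 0.0594 to 0.0772 CPM per library (3 counts, counting error only).

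In complex V, ATP synthase, 13 of 19 tested members were called higher, with a median log2 change of 0.40. By part, all 7 genes of the stalks and the membrane part were called (median 0.48), against 2 of 5 in the catalytic F1 head (median 0.25). Atp5mpl, a small protein bound to the membrane part, was at 72.6, 89.3, 77.6 and 70.6 CPM in WT and at 102, 148 and 156 CPM in KO. The groups were clearly separate, and its log2 change of 0.81 (SE 0.132, edgeR adjusted p = 0.0010) was the highest among called nuclear members. Atp5md, which helps ATP synthase to form dimers, had 89.9, 103, 99.8 and 99.1 CPM in WT and 114.5, 163 and 161 CPM in KO. The change was 0.58 (SE 0.112, edgeR adjusted p = 0.00183), with KO library 1 nearest to WT. Atp5j2, subunit f, changed by 0.53 (SE 0.111, edgeR adjusted p = 0.00292).

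The alpha and beta subunits of the catalytic head, both highly expressed, did not pass in the edgeR fit but were called higher by DESeq2 and limma. Atp5b, the beta subunit, was at 1602, 1706, 1528 and 1579 CPM in WT and at 1679.9, 1921 and 2112 CPM in KO. KO library 1 fell within the WT range, and the log2 change was 0.25 (SE 0.0946, edgeR adjusted p = 0.0575). Atp5a1, the alpha subunit, changed by 0.24 (SE 0.0908, edgeR adjusted p = 0.0591), with every KO library above WT. The DESeq2 adjusted p was 0.0335 for Atp5b and 0.0321 for Atp5a1. After correction for transcript length and GC content, Atp5a1 was called (edgeR adjusted p = 0.0438) and Atp5b was not (0.158). The 3 genes for the membrane ring, Atp5g1, Atp5g2 and Atp5g3, encode the same mature c subunit. Their log2 changes were 0.23 (edgeR adjusted p = 0.139), 0.33 (0.0214) and 0.30 (0.0317), and the calls of Atp5g2 and Atp5g3 were lost on leaving out KO library 2 or 3 or WT library 1, 3 or 4 (0.0520 to 0.166). Atp5g2 has a pseudogene, Gm10175, identical over 645 bases, and reads of the pair could be divided by the authors' counting.

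Levels between genes were compared per length, as CPM per kilobase of transcript. The highest nuclear members in WT were Atp5b at 837 ± 39.1, Cox6c at 519 ± 25.7, Atp5h at 406 ± 15.2 and Atp5a1 at 359 ± 18.5 (SD, n = 4). Atp5b lay below 11 of the 13 mitochondrial genes, and the other 3 lay below 12. The highest was mt-Co1, a catalytic subunit of complex IV, at 7568 ± 490.0 CPM per kilobase (SD, n = 4). It was followed by mt-Cytb, the complex III core, at 3339 ± 329.8 and mt-Nd2 at 2937 ± 394 (SD, n = 4). The value of mt-Nd2 did not differ beyond its spread from those of mt-Cytb and mt-Nd5. The next 4, mt-Nd5, mt-Nd6, mt-Atp8 and mt-Nd1, were at 1969 to 2331 CPM per kilobase and did not differ beyond their spread, nor did mt-Co2, mt-Atp6 and mt-Nd4, at 1173 to 1328. Next came mt-Nd4l at 1034 ± 117, which did not differ beyond its spread from mt-Nd4 or mt-Atp6. Below were mt-Co3 at 692 ± 54.4 and, much lower, mt-Nd3 at 32.6 ± 10.8 (SD, n = 4). This order rests on counts given to the mitochondrial rows alone, and 7 of the genes share sequence with nuclear copies described below. With the copies' counts added, mt-Atp6 was at 3156 ± 318 CPM per kilobase, between mt-Cytb and mt-Nd2, mt-Nd4l at 2118 ± 259.9, mt-Co2 at 1813 ± 147 and mt-Nd3, still the lowest, at 165 ± 60.9 (SD, n = 4).

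The mitochondrial genes, all subunits made inside the organelle, gave 2 calls higher and 1 lower among 13, with a median log2 change of -0.12. These calls were 15.4% and 7.69% of the 13, where 13.5% and 15.6% of all genes tested were called higher and lower. The mitochondrial genes made up 2.94, 2.75, 3.15 and 3.19% of counts in WT and 2.93, 3.54 and 2.93% in KO, so that the groups overlapped. Nuclear members made up 0.990, 1.06, 0.978 and 0.975% in WT and 1.11, 1.37 and 1.40% in KO, without overlap. Mitochondrial counts per nuclear count were 2.97, 2.60, 3.22 and 3.27 in WT and 2.63, 2.58 and 2.09 in KO, where KO library 1 lay inside the WT range.

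**Figure D2:**
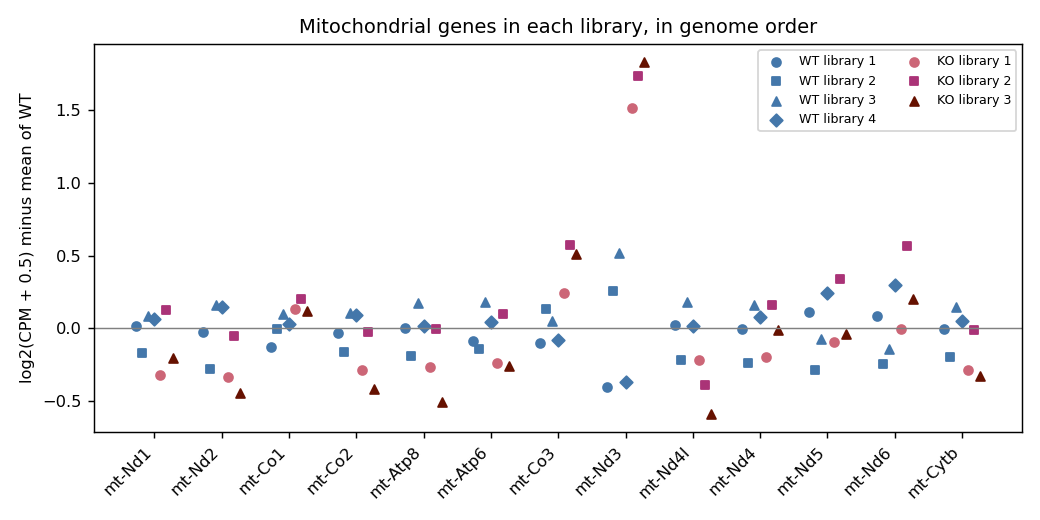
Log2(CPM + 0.5) of each mitochondrial gene minus its WT mean, in genome order, with 1 point per library. The 3 KO libraries stand above WT for mt-Nd3, mt-Co3 and mt-Co1 and at or below the lowest WT library for mt-Nd4l, while the other genes overlap.

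The gene for subunit 3 of complex I, mt-Nd3, had the only 2-fold change. It stood at 8.13, 13.2, 15.8 and 8.33 CPM in WT and at 32.1, 37.5 and 40.1 CPM in KO. No libraries overlapped, and the log2 change was 1.68 (SE 0.232, edgeR adjusted p = 0.00189). The copy on chromosome 1 went the other way. Gm28438 had 1092, 2973, 2954 and 1500 counts in WT and 357, 304 and 540 in KO, where mt-Nd3 itself had 315, 661, 739 and 364 counts in WT and 1259, 1759 and 1828 in KO. With the counts of gene and copy added, the sums were 1407 to 3693 in WT and 1616 to 2368 in KO, and the log2 change was -0.33 (edgeR adjusted p = 0.468). The call on mt-Nd3 thus did not hold for the pair.

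Put as a split, mt-Nd3 held 20.03 ± 1.75% of the pair's counts in WT (SD, n = 4) and 80.1 ± 4.47% in KO (SD, n = 3). The difference of 60.1 percentage points gave a two-sided exact permutation p of 0.0571, the smallest that 4 against 3 libraries allow (0.1998 after adjustment over 7 pairs). All 4 WT libraries lay between 18.2 and 22.4% and all 3 KO libraries between 77.2 and 85.3%. The other 6 mitochondrial genes with a copy of at least 99% identity, mt-Co1, mt-Co2, mt-Atp6, mt-Co3, mt-Nd4l and mt-Nd4, have it in the same stretch of chromosome 1. Their splits differed between groups by -1.30 to 1.18 percentage points. The difference of -1.30 points, for mt-Co2, also came with groups that did not overlap and with the same exact permutation p of 0.0571 (0.1998 adjusted), at 72.8 to 73.8% in WT and 71.4 to 72.7% in KO. In those pairs the copy either matched the gene at every aligned base or, for mt-Co1, differed at A1066T alone. The rule for reads that fit both places is not given in the sources used here, the count table holds no bases, and why the mt-Nd3 split differed was not tested.

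**Figure D3:**
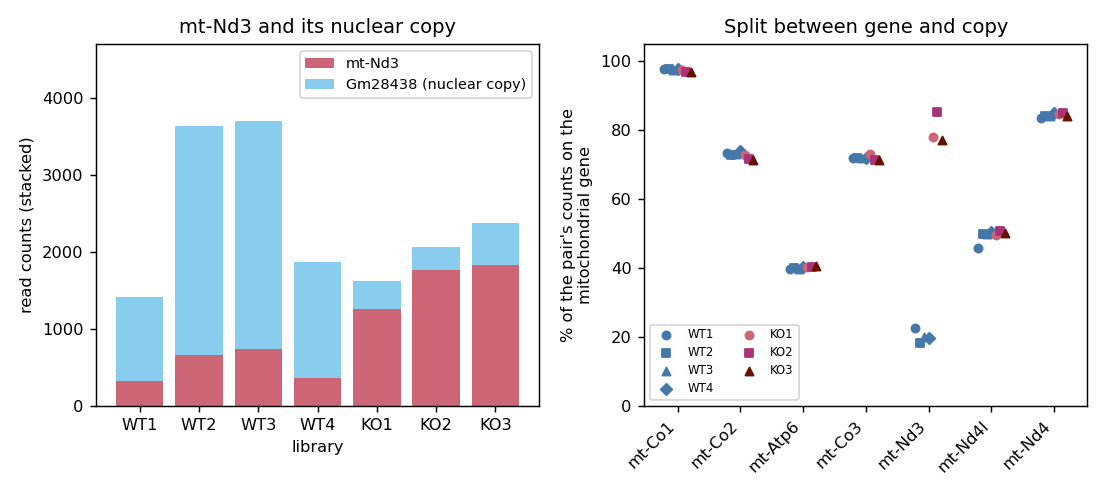
Left, read counts of mt-Nd3 and its nuclear copy Gm28438, stacked, in each library; right, the percentage of a pair's counts on the mitochondrial gene for the 7 genes with a near-identical copy (1 point per library). Only the mt-Nd3 split separates the groups widely, 18.2 to 22.4% in WT against 77.2 to 85.3% in KO.

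Of the other mitochondrial genes, mt-Co3, a structural subunit of complex IV, was at 503, 594, 560.4 and 511 CPM in WT and at 641, 803 and 769.7 CPM in KO. Every KO library was above WT, and the log2 change was 0.44 (SE 0.0989, edgeR adjusted p = 0.00431), or 0.45 with its copy Gm28437 added (edgeR adjusted p = 0.00479). The call was lost after correction for transcript length and GC content (0.17, edgeR adjusted p = 0.183). The gene for another membrane subunit of complex I, mt-Nd4l, was at 310.0, 262.3, 347 and 309 CPM in WT and at 262.2, 233 and 203 CPM in KO. KO library 1 all but equalled WT library 2. The log2 change was -0.40 (SE 0.108, edgeR adjusted p = 0.0123), and it was not called without WT library 3 (0.0515) or without KO library 3 (0.0946). The end of mt-Nd4l overlaps the start of mt-Nd4 by 7 bases, and mt-Nd4 changed by only -0.015 (edgeR adjusted p = 0.934).

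The remaining 10 mitochondrial genes did not pass. The lowest value was -0.28 for mt-Nd2 (edgeR adjusted p = 0.0827), and the highest was 0.26 for mt-Nd6, the one member read from the other strand, whose end overlaps that of mt-Nd5 by 14 bases. mt-Co1, which alone held 36.1 to 44.1% of the mitochondrial members' counts, was at 10693, 11643, 12506 and 11929.9 CPM in WT and at 12805, 13407 and 12669 CPM in KO. The KO libraries were all higher, yet the log2 change of 0.15 was not called (edgeR adjusted p = 0.224), and its sign flipped after either length correction. The strand setting of the counting is not given, so reads of mt-Nd6 and mt-Nd5 in their overlap cannot be told apart. For the same reason, the mt-Nd6 row may hold reads of RNA from the opposite strand over its whole length.

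The rise of nuclear members was uneven over the KO libraries. Against the WT mean, the median member deviated by 0.14 in KO library 1, 0.44 in KO library 2 and 0.49 in KO library 3 on the log2 scale, while WT libraries lay between -0.03 and 0.07. For mitochondrial members the medians were -0.22, 0.13 and -0.20 in KO libraries 1 to 3, against -0.19 to 0.15 in WT. KO library 1 set alone against WT, with the lone library assumed to vary like the WT libraries, gave 4 nuclear calls higher, Ndufa6, Ndufc1, Ndufs6 and Atp5mpl, and no mitochondrial call (edgeR), where 1.63% of all genes were called higher and 2.97% lower. With KO libraries 2 and 3 alone, 74 nuclear members were higher and none lower, and 2 mitochondrial members were higher and 1 lower, where 20.6% and 21.1% of all genes were. Without KO library 3 the count was 19 (4.09% of all genes), and 45 of the 64 calls were lost. That kept 29.7% of the nuclear calls, where 35.4% of the calls over all genes tested were kept. The other 19 nuclear calls were kept on leaving out any 1 library. Among those described above, they were Ndufa6, Ndufs6, Ndufc1, Uqcrq, Cox4i1, Cox7a2, Cox6b1, Cox8a, Atp5mpl, Atp5md and Atp5j2.

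**Figure D4:**
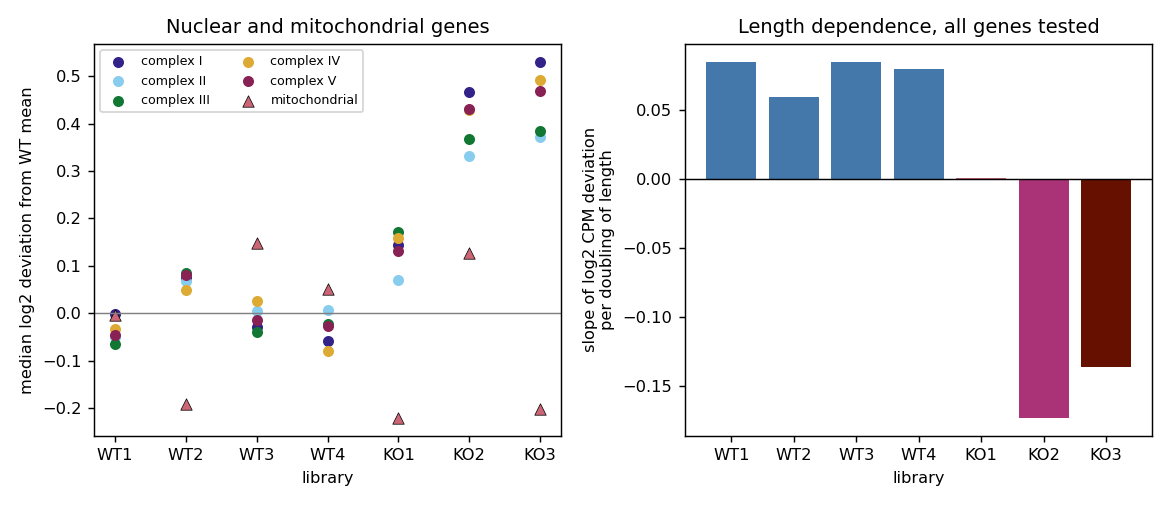
Left, median log2 deviation from the WT mean in each library for the nuclear members of each complex and for the mitochondrial members; right, the slope of log2 CPM deviation on transcript length over all genes tested. The medians of the 5 complexes are highest in KO libraries 2 and 3, the libraries with slopes of -0.173 and -0.136.

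Most subunit transcripts are short, and length therefore stands beside these changes. The nuclear members had a median length of 764 bases against 2773 for all genes tested. Among genes outside the members, the median log2 change was 0.28 for transcripts under 600 bases, 0.30 from 600 up to 800, 0.26 from 800 up to 1200, 0.19 from 1200 up to 2000 and -0.11 from 2000 bases up. In the same classes nuclear members had medians of 0.42, 0.40, 0.41, 0.35 and 0.22. The 8 nuclear members in the last class include Ndufb2, Atp5g1 and Atp5md. Their annotated transcripts of 4371, 4715 and 2733 bases are far longer than those of most members, so that class is uncertain. Ndufb2 and Atp5g1 were called higher under the length corrections and not without them. Atp5md was the only member of that class called without them. Mitochondrial members, also short, had medians of 0.005, -0.13, -0.21 and 0.07 in the first 4 classes, the first and the last of which hold 4 and 3 genes. Each was given the length of its own annotation, although mt-Atp8 overlaps mt-Atp6 by 43 bases and mt-Nd4l overlaps mt-Nd4 by 7. The share of nuclear members called higher was 70.8% under 600 bases, where it was 19.2% of other genes, and 12.5% from 2000 bases up, where it was 7.35%.

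**Figure D5:**
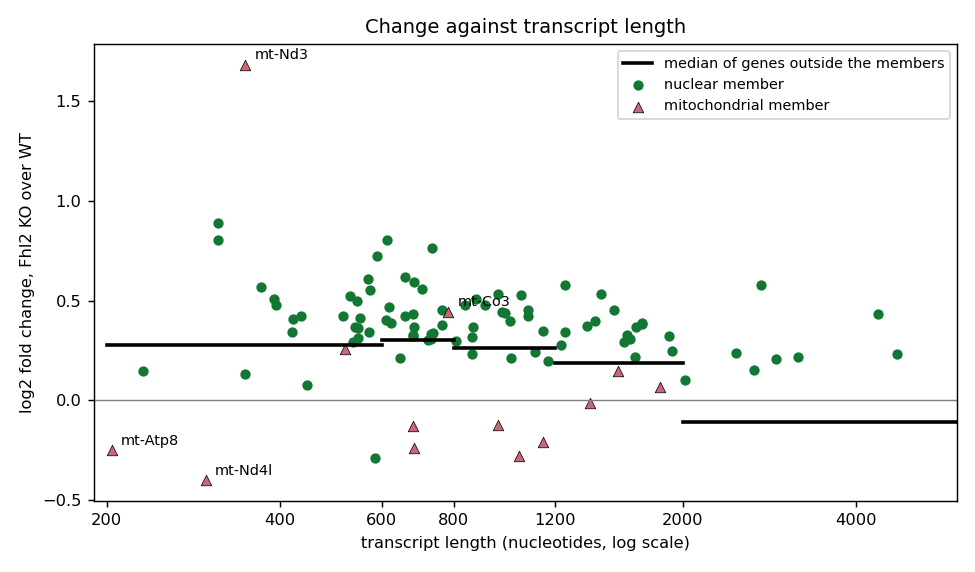
Log2 fold change, KO over WT, against transcript length (log scale) for nuclear members, mitochondrial members and, as bars, the median of all other genes in 5 length classes. Nuclear members lie mostly above the bars of their class, and mitochondrial members mostly below them.

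When each library's smooth trend on transcript length and GC content was taken out, 28 nuclear members were called higher and 1, Uqcr11, lower (edgeR), where 12.0% and 10.7% of all genes were. Of the 64 calls, 23 were kept (35.9%), where 53.8% of the calls over all genes tested were kept. The median log2 change of the nuclear members fell to 0.17. Values after that correction were 0.43 for Ndufa6 (edgeR adjusted p = 6.92e-04), 0.50 for Atp5mpl (0.00124), 0.60 for Atp5md (0.00145) and 0.33 for Uqcrq (0.00568). That of Atp5md rests on its long annotated transcript of 2733 bases and is uncertain. Cox4i1, by contrast, had 0.12 (edgeR adjusted p = 0.209) and Cox8a 0.07 (0.486). The mitochondrial members moved down: 8 were called lower and 1, mt-Nd3, higher, with a median of -0.41. With a correction for length alone, 17 nuclear members were called higher (9.87% of all genes), of which 14 were among the 64. That kept 21.9% of the 64 calls, where 49.0% of the calls over all genes tested were kept. Called lower were 7 mitochondrial members (9.52% of all genes), of which only mt-Nd4l had been called before. Either correction takes out any change that goes with length, and what set the rise was not tested.

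Promoters were matched for 65 of the 86 tested nuclear members (250 bases before to 50 after the start). All motifs were searched on both strands, and none of the 3 contains another. The NRF1 core GCGCATGC was in 10 of them (15.4%), against 5.79% of the 10960 tested genes with a promoter and 3.05% of all 27025. The ETS core CCGGAAG was in 17 (26.2%, against 19.3% and 9.93%) and the YY1 motif AAGATGGC in 9 (13.8%, against 5.03% and 3.19%). Members with and without the NRF1 motif had median log2 changes of 0.35 and 0.39, those with and without the ETS motif 0.39 and 0.38, and those with and without the YY1 motif 0.44 and 0.37. In the windows printed above, the motif begins 83 bases before the start of Ndufa6, 54 before that of Sdhb and 162 before that of Cox6a1.

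Other genes of the pathway were read from the same fit, in lists chosen with earlier results known. The share of all genes called was 13.5% higher and 15.6% lower, against which these counts are to be read. Of 17 tested factors of complex I, 6 were higher, among them Ndufaf3, Ndufaf8 and Nubpl, and 1 was lower (median log2 change 0.24). Of 10 factors of complexes II and III, 4 were higher, including Uqcc3 (0.57) and Sdhaf4 (0.60), and of 20 factors of complex IV, 9 were higher, including Surf1 (0.54). Complex V gave 1 of 4, Fmc1. With length and GC content taken out, 12.0% of all genes were called higher and 10.7% lower (edgeR). Under that correction 1 complex I factor was higher and 2 lower. Of the other factors, 6 of complexes II and III and 5 of complex IV were higher and none lower. Among 3 further subunits whose symbols the rule does not match, Atpif1, the inhibitor of ATP synthase, was higher (0.33).

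Genes around the chain did not move as 1 group; of all genes tested, 13.5% were called higher and 15.6% lower. Of 20 genes for electron carriers and coenzyme Q synthesis, 4 were higher, such as Coq7 (0.48), and 2 lower, one of them Gpd2 (-0.51), which feeds electrons from glycerol phosphate. Of 28 genes that copy, transcribe or stabilise mitochondrial DNA and RNA, 7 were higher, such as Ssbp1 (0.45), and 3 lower (median -0.04). Of 11 nuclear regulators, Pprc1, a coactivator of the PGC-1 family, was lower. It had 99.4, 94.5, 87.5 and 82.1 CPM in WT and 73.6, 45.8 and 60.7 CPM in KO, and its log2 change was -0.60 (SE 0.133, edgeR adjusted p = 0.00546). Of 21 genes of the tricarboxylic acid cycle and pyruvate entry, 4 were higher, such as Idh3g (0.33), and 3 lower, such as Idh3a (-0.43). Both encode subunits of the same dehydrogenase. With length and GC content taken out, 12.0% of all genes were called higher and 10.7% lower (edgeR). Then 2 carrier genes were higher and none lower, so Gpd2 was not called. Counts higher and lower were 4 and 2 for mitochondrial DNA and RNA, 1 and 1 for regulators, and 1 and 3 for the cycle and pyruvate entry.

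Markers of some other cells also differed between the groups, where 13.5% of all genes tested were called higher and 15.6% lower. Stromal markers summed to 364 to 422 CPM in WT and 118 to 164 in KO (5 of 7 lower), smooth muscle markers to 887 to 981 and 468 to 548 CPM (4 of 6 lower), and markers of the ovarian surface epithelium to 109.6 to 126 and 139.5 to 182 CPM (5 of 7 higher). Of 10 tested granulosa markers, 6 were lower and 2 higher. Endothelial markers, at 1.69 to 2.57 and 1.65 to 2.56 CPM, and leukocyte markers, at 8.23 to 10.1 and 8.43 to 8.61 CPM with Cd3e at 0, gave no call. Theca markers ran from 75.1 to 82.2 CPM in WT and from 55.0 to 63.6 CPM in KO (1 of 3 lower). Oocyte markers ran from 3.25 to 8.77 and from 4.64 to 11.8 CPM (1 of 7 lower, or 14.3%, near the share of all genes). Striated muscle markers ran from 0.527 to 1.58 CPM over all libraries, and markers of erythrocytes and sperm stayed under 0.6 CPM, with Tnp1, Acrv1 and Prm2 at 0. The part of these cells in the members' changes was not tested.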

How the data were processed

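The authors deposited whole-number read counts per gene symbol for the 7 libraries, not normalized, per the file headers and values. A stranded mRNA library kit was used on TRIzol RNA, per the labels' protocols. The submitters' processing notes name build mm10, HISAT2 (2.2.1), featureCounts (1.6.4), Cufflinks (2.2.1), fastp, SAMtools and DESeq2 (1.28.1), without saying how each was run. Not given in the sources used here are the annotation release, the strand setting and the handling of reads that fit several places.

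Counts were tested with edgeR 4.0.16 (R 4.3.3: filterByExpr, TMM, robust quasi-likelihood F test, genotype only) over all genes, with Benjamini-Hochberg adjustment and a threshold of 0.05. Members were read from that fit. On simulated counts for 15798 genes with this design, 41.4% of genes changed by 0.5 on the log2 scale and 84.1% of those changed by 1 were recovered, with 11 false calls. Those were 87 and 113 genes, drawn independently and without the KO libraries' dependence on transcript length. In the data 29.0% of genes were called, so these rates and the false calls need not hold there. Lengths and GC content came from 1 GENCODE M21 transcript per gene (mm10: APPRIS principal first, then basic, then the longest) and covered 98.6% of genes tested. Near-identical copies were found with blastn 2.17.0 (at least 99% identity over 150 bases for mitochondrial genes, 97% for nuclear ones). A floor of 3 counts covers counting error alone, because PCR duplicates were not marked by molecular identifiers.

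Alternatives were DESeq2 1.42.0, limma 3.58.1 (voom with quality weights), other scalings and filters, a replicate block, offsets for length or length and GC content, each library left out, KO library 1 alone, KO libraries 2 and 3 alone and, added after seeing the data, members summed with their copies. Replicate numbers carry no stated pairing.

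The members and lists were chosen with earlier results of these data known. Genes were named by rule: all mitochondrial members, per complex the 3 smallest p-values among calls and the 3 highest levels per kilobase, tissue isoforms, every member with a 2-fold call, and up to 3 called genes per other list. Genes named only in the counts of untested or lost members fall outside it and were named after their values were seen. A gene that the rule names is not reported here.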

Additional observations from a re-analysis of the deposited data

Results flagged for a closer look

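Dixon's test for a sample apart from its group was applied to the 4 WT libraries of 50 named members, where chance marks about 1 in 20, and it marked 5. Sdhb was high in WT library 2 at 77.9 CPM, and Atp5j2 was high in the same library at 69.6 CPM. Cox6a1 was low in WT library 4 at 176.7 CPM, as was Ndufb8 at 134.5 CPM. Cox6c was low in WT library 1 at 355.1 CPM. All 5 values lie below the lowest KO library for their gene, so these samples did not make the groups overlap.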

How the results depend on the processing

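Over 72 named genes and all alternatives, 1438 comparisons kept direction and side of the threshold, 209 lost and 50 gained a call and 24 changed sign. Counts that moved by over 1.5 times follow. The 2128 genes higher of all tested became 277 with KO library 1 alone, 3331 with KO libraries 2 and 3, and 662 to 3331 on leaving out 1 library. The 2460 lower became 1504 with the length offset, 504 with KO library 1 alone and 995 to 3409 on leaving out 1 library. The 64 nuclear members higher became 28 with the length and GC offset, 17 with the length offset, 4 with KO library 1 alone and 19 to 74 on leaving out 1 library, and 0 lower became 1 with the length and GC offset. The 2 mitochondrial members higher became 1 with either offset, 1 with copies summed and 0 with KO library 1 alone. The 1 lower became 5 with limma voom, 2 with no low-count filter, 8 with the length and GC offset, 7 with the length offset, 0 with KO library 1 alone and 0 to 4 on leaving out 1 library.

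Same-numbered libraries did not deviate together over all genes (correlations 0.0326, -0.0013 and -0.0324). These values cannot decide whether the numbers pair libraries, because the KO libraries also differed among themselves in their dependence on transcript length. With the replicate block on libraries 1 to 3 of each group, 1228 genes were higher, with 43 nuclear members higher and 3 mitochondrial higher and 1 lower; the same 6 libraries with no replicate block gave 1271, 45, 2 and 1.

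Signs changed as follows, none of these values being called. With the length and GC offset they were -0.0078 for Cox6a1, -0.0013 for Ndufb10, -0.0027 for mt-Co1, -0.13 for mt-Nd5 and -0.19 for mt-Nd6, and with the length offset -0.0082 for mt-Co1, -0.0584 for mt-Nd5 and -0.0287 for mt-Nd6. KO library 1 alone gave -1.14 for Cox7a1, -0.11 for mt-Nd5 and -0.0213 for mt-Nd6, and mt-Nd3 summed with its copy gave -0.33. For mt-Nd4, limma voom gave 0.0042, library totals 0.0276, scaling without mitochondrial, ribosomal protein and predicted genes 0.0146, the filter of 10 CPM 0.0008, the replicate block 0.0104, the same 6 libraries without it 0.0092, KO libraries 2 and 3 0.0908, and leaving out 1 library -0.0975 to 0.0908. Leaving out 1 library gave -0.0691 to 0.1701 for mt-Nd5. The cause of these changes was not tested, beyond what the smaller number of libraries sets. Depth limits what can be said of the tissue isoforms, at 0 to 2.40 CPM.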
